A study of Mus musculus with 8 samples.

Results

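Transcripts of 10 eicosanoid synthesis enzymes were followed in megakaryocytes (MKs) that were cultured alone or together with mesenchymal stem cells (MSCs). The members were the rows of the deposited count table whose symbol was *Ptgs1*, *Ptgs2*, *Alox12*, *Alox5*, *Alox5ap*, *Tbxas1*, *Pla2g4a*, *Ltc4s*, *Lta4h* or *Ptges*, and all 10 were found among 13387 genes. The cells came from C57BL/6 mice, and both groups held MKs enriched from flushed bone marrow by their surface CD41 and kept in medium with thrombopoietin. In the control group, called MKs cultured alone below, the MK-enriched cells were kept without added MSCs (4 libraries). In the second group they shared the wells for 18 hours with bone marrow MSCs sorted as CD45-Ter119-CD31-CD51+CD140a+ (4 libraries). Neither group carried a transgene or a drug treatment, and the labels give neither age nor sex. Per the paper, the study as a whole used young adult mice of both sexes. By the labels the RNA came from MKs freed of platelets, whereas the paper speaks of RNA from platelets made in the cultures. The labels tie no library to an animal, whereas the paper counts as many mice per group as there are libraries and pooled wells into each sample. The p-values measure the spread between these libraries.

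Eicosanoids are short-lived lipid signals made from arachidonic acid, which cytosolic phospholipase A2 cuts from membrane phospholipids. Cyclooxygenases turn the acid into prostaglandin H2, the common precursor of thromboxane, prostaglandin E2 and the other prostanoids, whereas lipoxygenases turn it into leukotrienes and hydroxy fatty acids. Platelets and MKs are known for cyclooxygenase 1, thromboxane synthase and the platelet-type 12-lipoxygenase, and the 5-lipoxygenase route to leukotrienes is best known from neutrophils, macrophages, mast cells and eosinophils.

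The libraries held between 4939874 and 12523616 counts, and 3 counts corresponded to between 0.284 and 0.662 CPM (counts per 1e+06 counts of the library, after scaling with edgeR's TMM factors). Reads carry no molecular identifiers, so such floors cover counting error only. Replicate 3 of the cocultures stood apart, where 1012 genes were at 0 although all the other libraries held at least 10 counts of each. No other library had more than 4 such genes. Results that rest on it are therefore given with and without it. The summed level of 15 MK and platelet markers lay between 1911 and 2251 CPM in MKs cultured alone and between 1760.5 and 2361 CPM in cocultures. Of the 15, 0 were called by edgeR, beside 20.5% of all genes tested (1 was lower at an unadjusted p under 0.05, and DESeq2 called 1). When replicate 3 of the cocultures was left out, edgeR called 3 of the 15, 1 higher and 2 lower, beside 36% of all genes tested. Markers of other marrow cells were present in both groups and moved between them. Over all genes tested, 13.2% were called higher and 7.31% lower. The summed level of 13 neutrophil markers lay between 86189 and 88549 CPM in MKs cultured alone and between 4601 and 10475 CPM in cocultures, and 13 of 13 were called lower. Of the 9 MSC markers analysed, 7 were tested and 6 were called higher, and their sum went from between 14.6 and 22.8 CPM to between 1155 and 3822 CPM. Of 10 macrophage markers tested, 9 were called higher, with sums from 175 to 238 CPM in MKs cultured alone and from 1139.8 to 1528 CPM in cocultures. Called lower were 7 of 8 eosinophil markers (1066 to 1792 CPM, then 13.5 to 66.8 CPM), 4 of 6 mast cell and basophil markers (1164 to 1368 CPM, then 133 to 271 CPM) and 4 of 9 B cell markers (891 to 979.7 CPM, then 201 to 232 CPM). In these bulk libraries fewer cells of a type cannot be told apart from less RNA per cell.

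In coculture *Ptgs2*, the inducible cyclooxygenase, rose from near 0. *Alox5*, *Alox5ap* and *Lta4h* of the leukotriene route and the thromboxane synthase gene *Tbxas1* fell. A gene was called when edgeR's quasi-likelihood test gave a change of at least 2-fold at an adjusted p (Benjamini-Hochberg) not above 0.05, with a mean of at least 1 CPM in either group. Of the 9 members that passed the filter on low counts, 1 was called higher and 4 were called lower, and 4 were not called. Of all 11722 genes tested, 20.5% were called, 13.2% higher and 7.31% lower. The CPM of the groups did not overlap for 1 member that was higher in cocultures (*Ptgs2*) and 5 that were lower (*Ptgs1*, *Alox5*, *Alox5ap*, *Tbxas1* and *Lta4h*), against 19.3% and 21.1% of all genes tested. The median log2 fold change of the 9 members was -0.58, against 0.034 over all genes tested. *Ltc4s* did not pass the filter. Without replicate 3 of the cocultures, 2 members were called higher (*Ptgs2* and *Ptges*) and 4 lower (*Alox5*, *Alox5ap*, *Lta4h* and *Alox12*), where 36% of 12267 genes tested were called, 20.6% higher and 15.4% lower. Without it *Ptges* was also higher and *Alox12* also lower with no overlap of the groups, a pattern that 30.7% of genes tested showed in the higher direction and 25.4% in the lower.

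**Figure D1:**
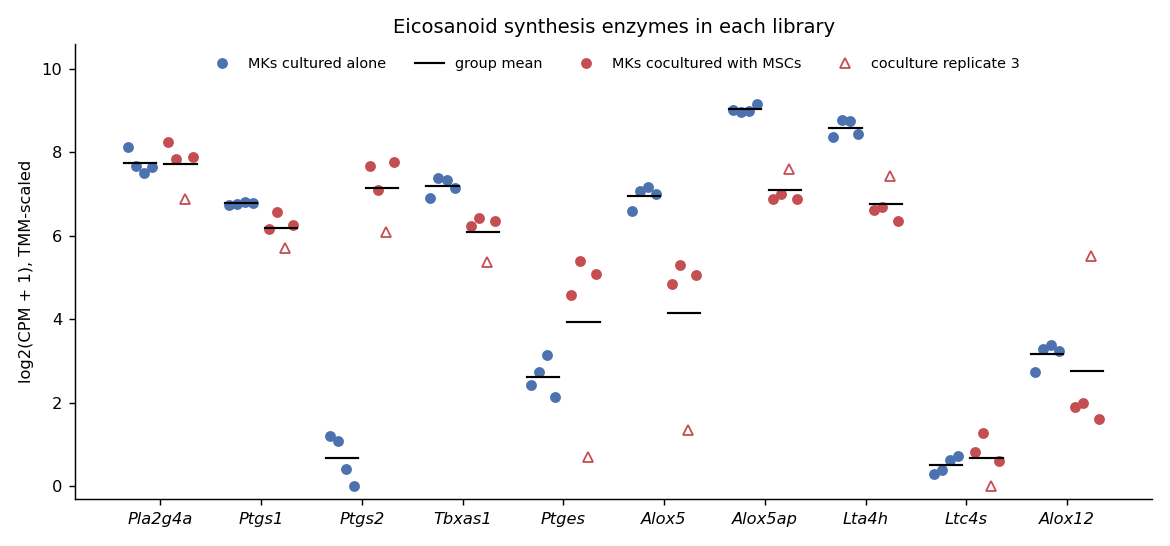
Level of each enzyme transcript, as log2(CPM + 1) after TMM scaling, in each of the 4 libraries of MKs cultured alone (blue) and the 4 cocultures (red). Bars mark group means and open triangles mark replicate 3 of the cocultures. The groups did not overlap for Ptgs1, Ptgs2, Tbxas1, Alox5, Alox5ap and Lta4h, and the open triangle lies far from the other cocultures for Alox5 and Alox12.

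*Pla2g4a* encodes cytosolic phospholipase A2 alpha, the enzyme that frees arachidonic acid for both routes (chr1:149829618-149961290, minus strand, GRCm38). Its level was 279, 202, 181 and 200.4 CPM in MKs cultured alone and 303, 227, 117 and 238 CPM in cocultures 1 to 4. The groups overlapped, with the highest and the lowest value both in cocultures. The log2 fold change was 0.036 ± 0.29 (SE) and the gene was not called by edgeR's quasi-likelihood test (adjusted p = 0.944). The estimate lay close to 0 and took either sign, from -0.15 to 0.23 with a library left out.

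Both cyclooxygenase isoenzymes make prostaglandin H2, *Ptgs1* as the form present in resting platelets and many tissues and *Ptgs2* as the form induced by inflammatory and growth signals. *Ptgs1* (chr2:36230426-36252272, plus strand) held 106, 108, 112 and 110.5 CPM in MKs cultured alone, the tightest of the 10 transcripts in that group by SD relative to the mean. In cocultures it held 71.2, 94.6, 51.4 and 75.6 CPM. Every coculture thus lay below every library of MKs cultured alone. The log2 fold change of -0.58 ± 0.22 (SE), a 1.49-fold lower level, was under the 2-fold limit and missed the threshold of edgeR's quasi-likelihood test (adjusted p = 0.0912). It was also negative in the other alternatives run on all libraries, from -0.66 to -0.48, and with a library left out. Without replicate 3 of the cocultures it passed the p threshold (edgeR quasi-likelihood test, adjusted p = 0.0285) but stayed under the 2-fold limit at -0.46 ± 0.17 (SE).

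*Ptgs2* (chr1:150100031-150108227, plus strand) had 6, 11, 3 and 0 counts in MKs cultured alone, or 1.32, 1.13, 0.333 and 0 CPM, where the library at 0 allows up to 0.488 CPM. In cocultures it had 2148, 1038, 644 and 1252 counts, or 204, 135, 67.4 and 217 CPM. The groups were far apart, and replicate 3 had the lowest of the coculture values. The log2 fold change was 7.80 ± 0.82 (SE), a 223-fold higher level (edgeR quasi-likelihood test, adjusted p = 0.000255). Without replicate 3 of the cocultures it was 8.04 ± 0.39 (SE). It was called in 7 of 7 alternatives that kept the gene and in 8 of 8 fits with a library left out. A filter that asked for 10 counts in every library removed it by construction. Beside this rise, the summed MSC markers were 1155 CPM in replicate 3 and 2660 to 3822 CPM in the other cocultures, so that replicate 3 was the lowest coculture in both, and the macrophage markers were 1528 CPM in replicate 3 and 1139.8 to 1521 CPM in the others. The part of those cells in the rise was not tested.

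*Pla2g4a* and *Ptgs2* lie on opposite strands of chromosome 1 with 139 kb and 3 annotated genes between them, so a gene whose level did not pass the test lay near the gene with the largest rise of the 9 tested members. The 250 bases ahead of the RefSeq start of both cyclooxygenase genes are shown because the isoenzymes are the pair whose ratio moved most of the 6 ratios computed. They were read 5′ to 3′ on the strand of each gene, at chr2:36230176-36230425 for *Ptgs1* and chr1:150099781-150100030 for *Ptgs2* (GRCm38.p6). Capitals mark matches to 8 short motifs on either strand.
Ptgs1: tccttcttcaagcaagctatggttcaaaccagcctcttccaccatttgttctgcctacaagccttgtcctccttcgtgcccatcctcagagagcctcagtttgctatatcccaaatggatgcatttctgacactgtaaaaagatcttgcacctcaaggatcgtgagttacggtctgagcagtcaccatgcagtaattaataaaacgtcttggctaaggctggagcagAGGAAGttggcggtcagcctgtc
Ptgs2: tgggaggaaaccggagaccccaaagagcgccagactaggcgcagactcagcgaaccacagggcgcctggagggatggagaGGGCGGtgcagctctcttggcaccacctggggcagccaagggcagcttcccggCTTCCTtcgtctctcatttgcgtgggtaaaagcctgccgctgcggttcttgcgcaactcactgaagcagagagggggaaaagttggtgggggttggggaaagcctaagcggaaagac
The motifs were the TATA box TATAAA, the cAMP response half-site TGACGT, the E-box CACGTG, the GC box GGGCGG, the GATA motif AGATAA, the ETS motif AGGAAG, the AP-1 motif TGANTCA and the NF-kB motif, GGGA and CC with any 4 bases between. In the 300-base window that runs 50 bases past the start, *Ptgs1* held an ETS match, first base 23 bases ahead of the start, as did 35.4% of 32851 RefSeq promoters. *Ptgs2* held a GC box at 170 bases ahead (35.7% of promoters) and an ETS match at 117 bases ahead. It also held a cAMP response half-site at position 13 (7.51% of promoters) that overlapped an E-box at position 17 (7.15%). Both lie past the RefSeq start, in bases that are not printed. These matches describe the letters of the windows.

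Within a library the ratio of 2 transcripts does not depend on the scaling between libraries. Per kilobase of transcript, with 0.5 counts added, *Ptgs2* stood to *Ptgs1* as 0.00871, 0.00708, 0.00223 and 0.000474 to 1 in MKs cultured alone. In cocultures the ratio was 1.84, 0.920, 0.844 and 1.85. The isoenzymes were thus at like levels in each coculture, replicate 3 included, whereas *Ptgs1* exceeded *Ptgs2* by 115-fold or more in each library of MKs cultured alone.

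*Tbxas1* encodes thromboxane synthase, which makes the platelet agonist thromboxane A2 from prostaglandin H2 (chr6:38875404-39084585, plus strand). It held 119, 166, 162 and 141 CPM in MKs cultured alone and 74.9, 84.7, 40.6 and 80.8 CPM in cocultures, and the groups did not overlap. The log2 fold change of -1.06 ± 0.26 (SE), a 2.09-fold lower level, was called by edgeR's quasi-likelihood test (adjusted p = 0.0196). The call lay at the edge of both limits. It was lost with library size as the only scaling, with scaling to MK and platelet markers, with the replicate number as a block and without replicate 2 or 3 of MKs cultured alone. It was also lost when replicate 3 of the cocultures was left out, at a log2 fold change of -0.90 ± 0.17 (SE). *Tbxas1* overlaps *Hipk2* on the opposite strand, and whether the counting used strand is not given in the sources used here. The ratio of *Tbxas1* to *Ptgs1* per kilobase was 1.62, 2.22, 2.08 and 1.84 in MKs cultured alone and 1.52, 1.29, 1.14 and 1.54 in cocultures, lower in each coculture than in any library of MKs cultured alone.

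*Ptges* encodes the inducible microsomal prostaglandin E synthase, which often works with cyclooxygenase 2 (chr2:30889471-30929863, minus strand). Its level was 4.41, 5.67, 7.87 and 3.42 CPM in MKs cultured alone. In cocultures it was 23.1, 41.4, 0.628 and 33.3 CPM. Replicates 1, 2 and 4 of the cocultures lay above every library of MKs cultured alone, and replicate 3 lay below every one of them. With all libraries the log2 fold change of 2.19 ± 0.94 (SE) was not called by edgeR's quasi-likelihood test (adjusted p = 0.129), and DESeq2 called it (adjusted p = 0.0477). Without replicate 3 it was 2.55 ± 0.30 (SE), a 5.87-fold higher level (edgeR quasi-likelihood test, adjusted p = 1.82e-06). That replicate also had the lowest *Ptgs2* level of the cocultures and the lowest sum of MSC markers. That sum, 1155 CPM, was still above the 14.6 to 22.8 CPM of MKs cultured alone. Its macrophage marker sum was the highest of the cocultures (1528 CPM). The part of these cells in the *Ptges* level was not tested. *Ptges* stood to *Ptgs2* as 3.85, 5.89, 24.9 and 52.5 to 1 in MKs cultured alone and as 0.139, 0.374, 0.0123 and 0.188 in cocultures.

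*Alox5* encodes 5-lipoxygenase, *Alox5ap* its activating protein FLAP, which hands it arachidonic acid, *Lta4h* the hydrolase that makes leukotriene B4, and *Ltc4s* the synthase that makes leukotriene C4. *Alox5ap* (chr5:149264767-149288153, plus strand) held 515, 501, 512 and 569 CPM in MKs cultured alone and 118, 128, 192 and 118 CPM in cocultures. It fell 3.77-fold, with a log2 fold change of -1.92 ± 0.21 (SE) (edgeR quasi-likelihood test, adjusted p = 0.000289). *Lta4h* (chr10:93453411-93484875, plus strand) held 333, 437, 429 and 349.8 CPM and then 96.9, 103, 171 and 81.5 CPM. It fell 3.42-fold, with a log2 fold change of -1.77 ± 0.26 (SE) (edgeR quasi-likelihood test, adjusted p = 0.00161). Neither gene's groups overlapped, and both were called lower in 8 of 8 alternatives run on all libraries and in 8 of 8 fits with a library left out. In both genes replicate 3 had the highest coculture level. Without it the log2 fold changes were -2.13 ± 0.17 and -2.06 ± 0.18 (SE), within their errors of each other.

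*Alox5* (chr6:116410077-116461178, minus strand) held 96.2, 135, 143 and 127 CPM in MKs cultured alone and 28.1, 38.7, 1.57 and 32.4 CPM in cocultures. The groups did not overlap, and replicate 3 was far below the other cocultures, the opposite of its place for *Alox5ap* and *Lta4h*. The log2 fold change was -2.32 ± 0.73 (SE), a 4.98-fold lower level (edgeR quasi-likelihood test, adjusted p = 0.0492). This call at the threshold was lost under library size only, marker scaling and the replicate block, and without any 1 of the 7 libraries other than replicate 3 of the cocultures. Without that replicate the spread was smaller and the log2 fold change was -1.94 ± 0.20 (SE), a 3.85-fold lower level (edgeR quasi-likelihood test, adjusted p = 4.58e-07). Beside these falls, the 13 neutrophil markers had a median log2 fold change of -3.29 and the 8 eosinophil markers one of -4.83. The 6 mast cell and basophil markers tested had one of -2.84. Macrophage markers went the other way, with a median of 3.62 over 10 tested. The neutrophil sum was 4601 CPM in replicate 3 and 9875 to 10475 CPM in the other cocultures. It was lowest in replicate 3, as *Alox5* was, whereas *Alox5ap* and *Lta4h* were highest there. The part of these cell types in the falls was not tested.

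*Ltc4s* (chr11:50236461-50238616, minus strand) had 1, 3, 5 and 4 counts in MKs cultured alone and 8, 11, 0 and 3 counts in cocultures. At most 1.43 CPM was reached, and a difference between the groups was not detectable at this depth. *Gm26542* lies antisense to this gene, as *Gm19719* does to *Alox5ap*. The markers of mast cells and basophils, cells known for leukotriene C4, had a median log2 fold change of -2.84 over 6 genes tested.

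*Alox12* encodes the platelet-type 12-lipoxygenase, which makes 12-hydroxyeicosatetraenoic acid in platelets (chr11:70241457-70255353, minus strand). It held 5.74, 8.76, 9.43 and 8.46 CPM in MKs cultured alone and 2.75, 3.0, 44.6 and 2.08 CPM in cocultures. Cocultures 1, 2 and 4 lay below every library of MKs cultured alone and replicate 3 lay above every other library, with 426 counts. The sign of the change rested on that library, and it also turned negative with the replicate number as a block (-0.73). The log2 fold change was 0.69 ± 1.0 (SE) with it (edgeR quasi-likelihood test, adjusted p = 0.661) and -1.65 ± 0.35 (SE) without it, a 3.13-fold lower level (adjusted p = 0.00075). The sum of the MK and platelet markers was 2361 CPM in replicate 3 and 1760.5 to 2126 CPM in the other cocultures. The sum of 6 erythroid markers was 55.5 CPM in replicate 3 and 7.03 to 10.4 CPM in the other cocultures. In MKs cultured alone it was 23.5 to 31.7 CPM. Of these 6 markers, 3 were at 0 in replicate 3. The part of either cell type in the *Alox12* level was not tested.

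The ratio of *Alox5* to *Alox12* varied little outside that library. Per kilobase it was 17.5, 16.3, 16.0 and 15.8 in MKs cultured alone and 10.7, 13.5 and 16.0 in cocultures 1, 2 and 4, against 0.0387 in coculture 3. The ratio of *Alox5ap* to *Alox5* was 12.1, 8.36, 8.08 and 10.1 in MKs cultured alone and 9.43, 7.45 and 8.18 in the same cocultures, against 267 in coculture 3. In both ratios the groups overlapped. In the libraries other than coculture 3, *Alox5*, *Alox12* and *Alox5ap* thus kept similar proportions while the level of each was lower in cocultures. *Alox5* to *Alox12* was nevertheless lower in cocultures 1 and 2 than in any library of MKs cultured alone. The ratio of *Lta4h* to *Ltc4s*, which rests on at most 11 *Ltc4s* counts, was 321, 387, 225 and 153 in MKs cultured alone and 38.5, 22.0, 1045 and 43.0 in cocultures. The bases ahead of both lipoxygenase starts are shown because *Alox5* to *Alox12* varied little outside coculture 3. In coculture 3 these genes moved in opposite directions. The bases lie at chr6:116461179-116461428 for *Alox5* and chr11:70255371-70255620 for *Alox12* (GRCm38.p6, strand of each gene, same motifs in capitals).
Alox5: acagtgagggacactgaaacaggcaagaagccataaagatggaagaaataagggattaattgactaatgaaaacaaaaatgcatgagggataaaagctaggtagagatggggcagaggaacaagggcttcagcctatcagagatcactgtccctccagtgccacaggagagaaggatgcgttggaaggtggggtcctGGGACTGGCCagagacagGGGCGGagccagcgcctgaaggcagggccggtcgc
Alox12: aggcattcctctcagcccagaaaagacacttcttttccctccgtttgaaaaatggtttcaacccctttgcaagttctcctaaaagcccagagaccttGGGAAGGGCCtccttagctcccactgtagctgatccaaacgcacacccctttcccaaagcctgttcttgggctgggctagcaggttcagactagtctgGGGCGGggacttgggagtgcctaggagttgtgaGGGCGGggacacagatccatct
*Alox5* held a GC box 35 bases ahead of the start and an NF-kB match 53 bases ahead (20.7% of promoters). *Alox12* held GC boxes 55 and 22 bases ahead and at position 42 past the start, and an NF-kB match 153 bases ahead. Neither window held the GATA motif in these letters, which 11.2% of promoters held.

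**Figure D2:**
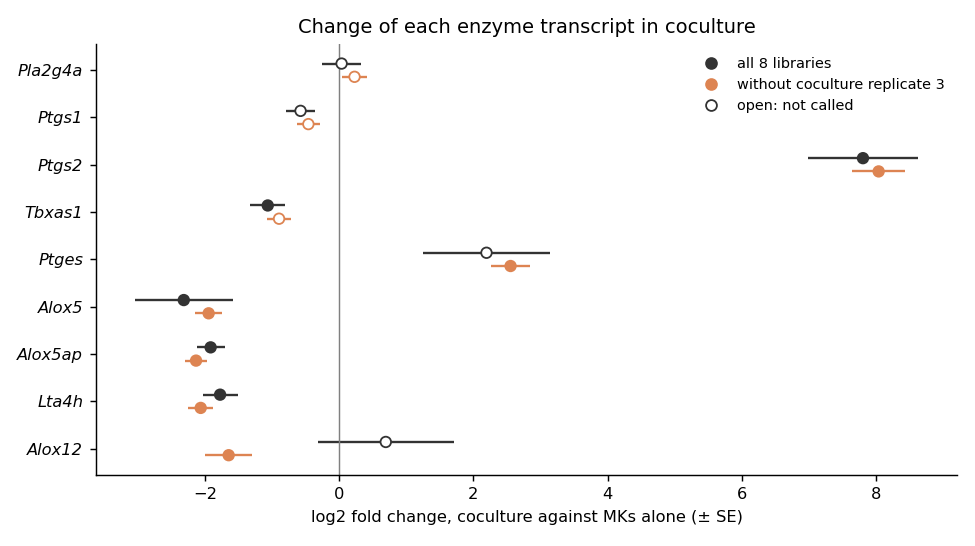
Log2 fold change of each tested member in cocultures against MKs cultured alone, with SE, over all 8 libraries (black) and without replicate 3 of the cocultures (orange). Filled points were called and open points were not. Leaving out the replicate moved Alox12 from 0.69 to -1.65 and shortened the error bar of Alox5 from 0.73 to 0.20.

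**Figure D3:**
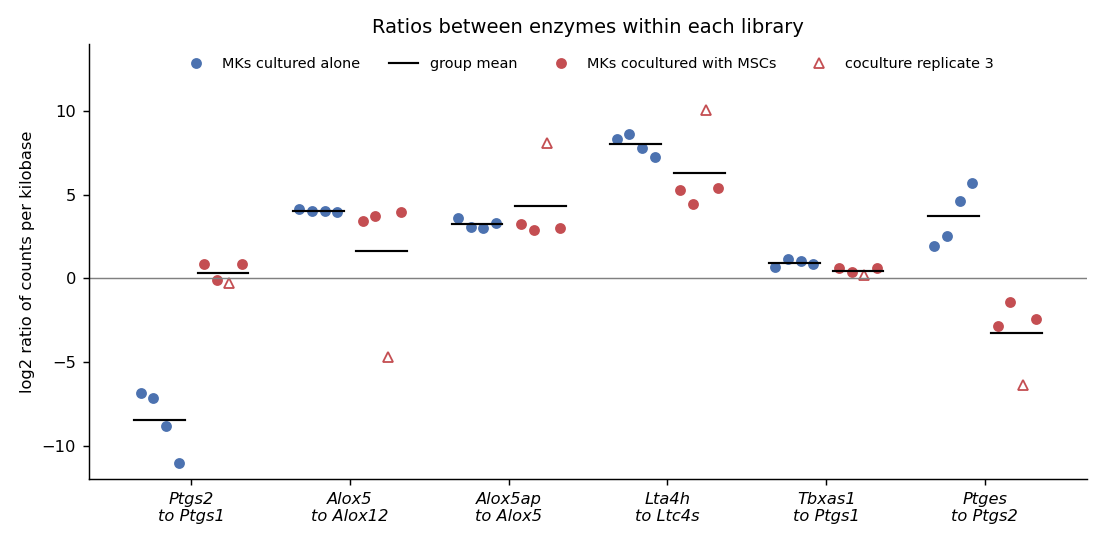
Log2 ratio of counts per kilobase between pairs of enzymes in each library, with 0.5 counts added, where bars are group means and open triangles are replicate 3 of the cocultures. Ptgs2 to Ptgs1 went from a mean of -8.46 in MKs cultured alone to 0.35 in cocultures, and Alox5 to Alox12 stayed between 3.42 and 4.13 in every library but that replicate, at -4.69.

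Levels of different genes were compared per kilobase of the principal GENCODE transcript. In MKs cultured alone the order by mean was *Alox5ap*, *Lta4h*, *Pla2g4a*, *Tbxas1*, *Alox5*, *Ptgs1*, *Alox12*, *Ptges*, *Ltc4s* and *Ptgs2*, from 419 ± 24.6 to 0.157 ± 0.142 CPM per kilobase (SD, n = 4). The ranges of neighbours overlapped for *Pla2g4a* and *Tbxas1*, for *Alox5* and *Ptgs1*, for *Alox12* and *Ptges*, and for *Ptges* and *Ltc4s*, so these pairs were not ordered beyond their spread. In cocultures *Alox5ap* was again highest at 111 ± 28.7 CPM per kilobase, followed by *Pla2g4a* at 77.5 ± 27.0, *Lta4h* at 55.7 ± 19.5, *Tbxas1* at 35.3 ± 10.1 and *Ptgs2* at 35.0 ± 15.5 (SD, n = 4). There the only neighbours whose ranges did not overlap were *Ptgs1* and *Alox5*. *Ptgs2* moved from the lowest place to the fifth.

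The 10 transcripts together came to 808, 860.2, 861 and 857 CPM per kilobase in MKs cultured alone and 374, 367, 348 and 356 in cocultures. The leukotriene transcripts (*Alox5*, *Alox5ap*, *Lta4h* and *Ltc4s*) made up 77.3% ± 1.36 of this sum in MKs cultured alone and 49.2% ± 13.1 in cocultures (SD, n = 4). Within cocultures the share was 40.8%, 46.1%, 68.5% and 41.3%, highest in replicate 3 and below MKs cultured alone in each. The prostanoid transcripts (*Ptgs1*, *Ptgs2*, *Tbxas1* and *Ptges*) made up 13.4% ± 1.04 and then 28.3% ± 8.78 (SD, n = 4), with 15.4% in replicate 3 and 30.6% to 35.1% in the other cocultures. The share was thus higher in each coculture than in any library of MKs cultured alone (12.2% to 14.3%). Their summed level was 98.3 to 123 CPM per kilobase in MKs cultured alone and 53.6 to 125 in cocultures. In cocultures 1, 2 and 4 this sum lay in or just above the range of MKs cultured alone. In replicate 3 it lay below that range, at 53.6.

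**Figure D4:**
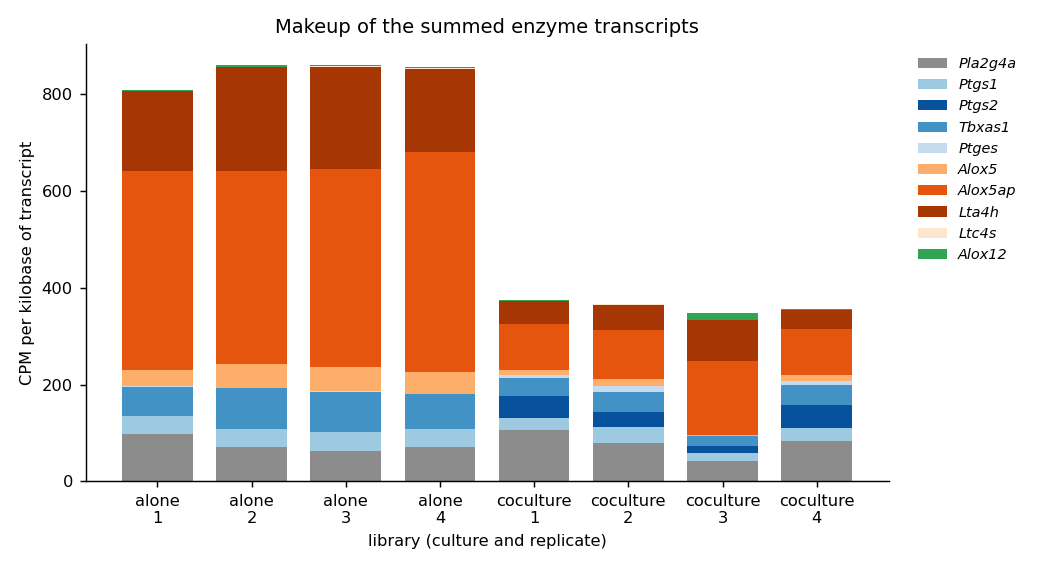
Summed level of the 10 enzyme transcripts in each library, in CPM per kilobase of transcript, stacked by gene. The sums lay between 808 and 861 in MKs cultured alone and between 348 and 374 in cocultures, with the orange leukotriene segments smaller and the dark blue Ptgs2 segment visible only in cocultures.

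Of 69 other genes listed for the pathway, 52 were in the table and 46 passed the filter. Of these 7 were called higher and 8 lower, beside 13.2% higher and 7.31% lower of all genes tested, with a median log2 fold change of -0.089, against 0.034 over all genes tested. Without replicate 3 of the cocultures, 15 of 50 were called higher and 11 lower, beside 20.6% and 15.4% of all genes tested. The roles hold few genes each, and their counts are given as descriptions. The numbers that follow are log2 fold changes with SE in cocultures against MKs cultured alone, and calls are by edgeR's quasi-likelihood test.

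Among 14 genes for phospholipases and acyl remodelling, 1 was called higher and 1 lower. *Pla2g12a*, a secreted phospholipase A2, was called at 1.29 ± 0.39, a call lost with RLE factors, without the low-count filter, with the replicate block and without any 1 library other than replicate 3 of the cocultures. *Plaa*, the phospholipase A2-activating protein and the most abundant of the group, had -0.079 ± 0.29 and changed sign with the setting. Among 4 other prostanoid synthases, 2 were called higher. *Hpgds*, which makes prostaglandin D2 in hematopoietic cells, rose from between 3.30 and 12.1 CPM to between 32.3 and 111 CPM, with 3.27 ± 0.57. *Ptges3*, the abundant cytosolic prostaglandin E synthase that is also the cochaperone p23, had -0.19 ± 0.22 and was not called. Among 3 tested genes for other lipoxygenases and epoxide enzymes, *Ephx1*, microsomal epoxide hydrolase, rose from between 5.74 and 8.46 CPM to between 30.0 and 162 CPM, with 3.89 ± 0.51, and 1 was called lower.

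Among 5 tested genes that conjugate glutathione or cleave its products, 1 was called higher and 2 lower. *Mgst2*, a microsomal transferase that can make leukotriene C4, fell from between 35.3 and 53.2 CPM to between 6.77 and 11.3 CPM, with -2.34 ± 0.32. *Mgst1*, the most abundant of the group, fell with -1.61 ± 0.20. *Dpep2*, a dipeptidase that turns leukotriene D4 into E4, rose with 2.92 ± 0.66, from at most 10.1 CPM to 158 CPM in replicate 3 and 26.6 to 31.7 CPM in the other cocultures, and without that replicate it had 1.82. The *Dpep2* call was lost without replicate 1 of MKs cultured alone, at 2.82, and DESeq2 gave no adjusted p for it. The transcripts of the leukotriene C4 chain thus moved in both directions.

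Among 7 genes of inactivation, 1 was called higher and 2 lower. *Hpgd*, the dehydrogenase that starts prostaglandin breakdown, fell from between 21.1 and 53.0 CPM to between 0 and 4.04 CPM, with -4.23 ± 1.07, a call lost with the replicate block and without replicate 1, 2 or 4 of MKs cultured alone or replicate 1 or 4 of the cocultures. *Ptgr1*, a prostaglandin reductase that also inactivates leukotriene B4, had 1.47 ± 0.43 and was called, with 197 CPM in replicate 3 and 52.4 to 73.2 CPM in the other cocultures. That call was lost with the replicate block, without any 1 library of MKs cultured alone, and without replicate 2 or 3 of the cocultures, and it was 0.84 without replicate 3. *Ptgr2*, the most abundant of the group, had 0.0049 ± 0.34 and changed sign with the setting. Among 3 transporters, *Slco2a1*, which takes prostaglandins up into cells, rose from between 0.163 and 0.998 CPM to between 61.0 and 74.3 CPM, a 155-fold change with 7.27 ± 0.62, and replicate 3 had the highest value. *Abcc1*, an exporter of leukotriene C4 and the most abundant transporter, had 0.93 ± 0.29, under the 2-fold limit, and was called without replicate 3 at 1.08.

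Among 10 tested receptors 2 were called lower and 0 higher by edgeR, beside 7.31% and 13.2% of all genes tested (0 were higher at an unadjusted p under 0.05, and DESeq2 called 0 higher). With replicate 3 of the cocultures left out, 3 of 11 were called lower and 1 higher, which was *Ptgfr*, the receptor for prostaglandin F2 alpha, at 5.31 ± 0.69. *Ltb4r1*, the high-affinity leukotriene B4 receptor, fell from between 100.6 and 194 CPM to between 6.17 and 18.6 CPM, an 11.4-fold change with -3.51 ± 0.38. *Lta4h* and *Ltb4r1*, the last enzyme and the main receptor of leukotriene B4, were both among the called falls. Beside them, the neutrophil markers had a median of -3.29 and the macrophage markers one of 3.62. The part of those cells in the 2 falls was not tested. The receptor *Tbxa2r* for thromboxane had -0.52 ± 0.82 and was not called. It was named after its values were known.

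**Figure D5:**
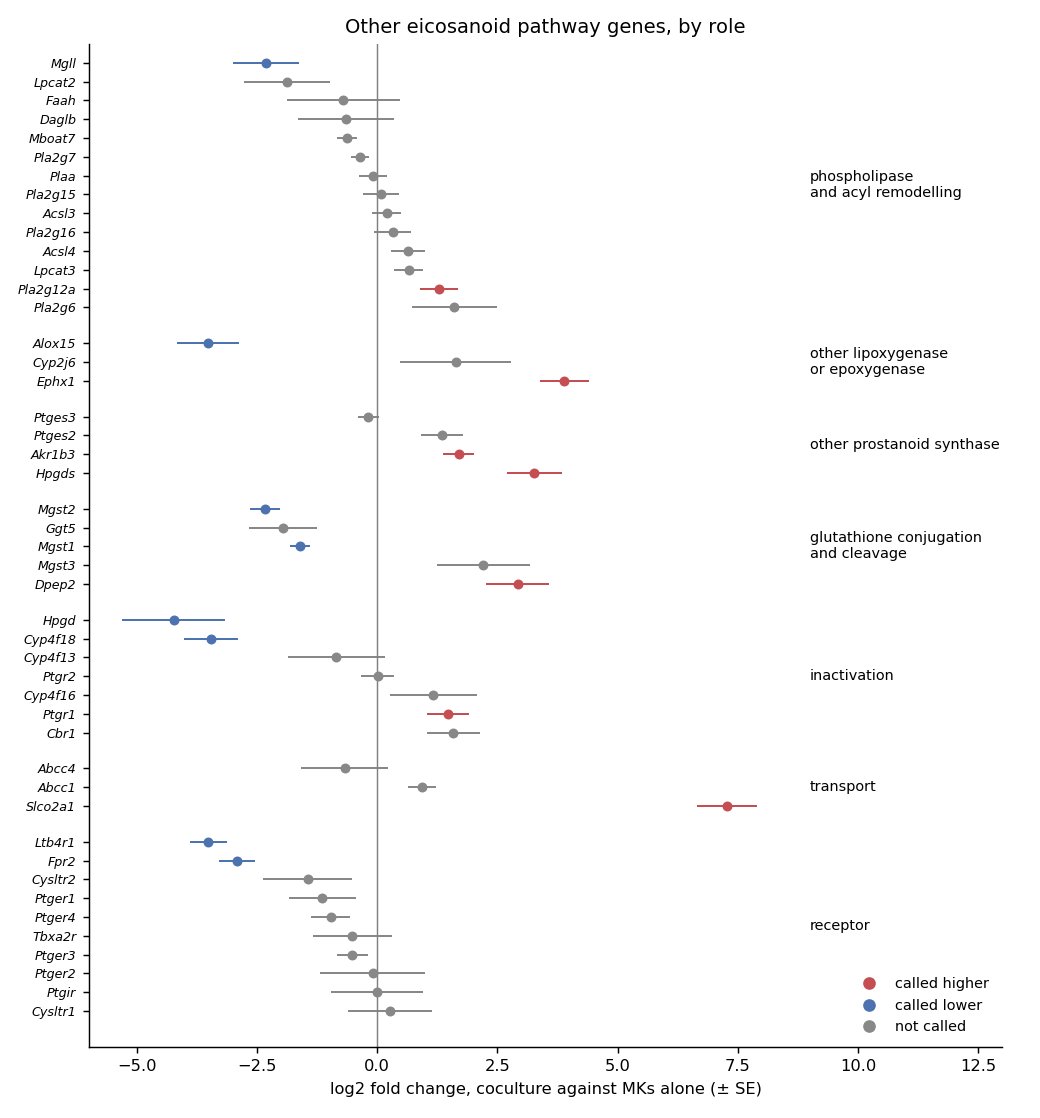
Log2 fold change, with SE, of the 46 other pathway genes tested, ordered within each role. Red genes were called higher (7), blue genes lower (8) and grey genes were not called. Slco2a1 stands farthest to the right at 7.27, and Hpgd farthest to the left at -4.23.

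For each tested member, the 2 genes with the most similar course were found by Pearson's correlation of log2(CPM + 1) over the 8 libraries, among 9047 genes with a mean of at least 10 CPM. The libraries share depth, culture and replicate 3 of the cocultures, so these values are descriptions. *Ptgs2* was followed most closely by *Acp2* (r = 0.997), a lysosomal phosphatase, and *Tgfb1i1* (r = 0.997), a focal adhesion protein of mesenchymal cells. *Alox5* was followed by *Nrm* (r = 0.998), a nuclear membrane protein, and *Fcnb* (r = 0.998), a ficolin of myeloid cells. *Alox5ap* was followed by *Pcmt1* (r = 0.996) and *Trem3* (r = 0.996), a receptor of myeloid cells. *Lta4h* was followed by *Cst7* (r = 0.995), a cystatin of immune cells, and *H2-Aa* (r = 0.995), a chain of MHC class II. *Tbxas1* was followed by *Arhgap4* (r = 0.995) and *Tbc1d10c* (r = 0.991), which act on small GTPases in blood cells. *Ptgs1* was followed by *Cldn15* (r = 0.987) and *Lrmp* (r = 0.986), *Pla2g4a* by *Impad1* (r = 0.987) and *Nipsnap3b* (r = 0.979), *Ptges* by *S1pr3* (r = 0.991) and *Hdhd2* (r = 0.990), and *Alox12* by *Fancg* (r = 0.994) and *Smim27* (r = 0.993). Without replicate 3 of the cocultures, 1 of these 18 genes stayed among the closest 2 of its member, *Nipsnap3b*, and *Fancg* and *Smim27* ranked 54 and 63.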

How the data were processed

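RNA-Seq was analysed in 8 libraries of C57BL/6 murine MKs, 4 cultured alone and 4 cocultured with MSCs, as labelled. Counts were used as the authors deposited them, not normalized. Per the paper, libraries were made with SMART-Seq HT and sequenced from both ends, reads were filtered with fastp, and kallisto quantified them against mm10. How transcripts were summed and rounded, and whether strand was used, is not given in the sources used here. Groups were compared in edgeR 4.0.16 under R 4.3.3 (TMM, filterByExpr, robust quasi-likelihood F test over all genes, no covariate). Standard errors were taken from the fitted coefficient and its F statistic. The limits on fold change, adjusted p and level were those of the study, with the level in CPM. The study's DESeq2 design had a batch term that is not named, so none was fitted. DESeq2 1.42.0 and the other alternatives are given in the closing section. Transcript lengths and positions came from GENCODE vM21 (GRCm38), and bases ahead of gene starts from RefSeq (GRCm38.p6), where all 10 members matched. The tests were tested on simulated counts. Members, pathway genes and markers were chosen with earlier results of these data known. Pathway genes named were, per role, the largest called rise and fall with at least 10 CPM and the most abundant gene. Genes named beyond this were chosen after their values were seen.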

Additional observations from a re-analysis of the deposited data

Results flagged for a closer look

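In each group of 4 libraries, the levels of the 10 members and of the named pathway genes and the 6 ratios were searched for 1 value standing away from the remaining 3. This was found in 8 of 60 searches, and coculture replicate 3 was the library in 6 of them. Chance gives about 3 if the values are normally distributed. The searches shared libraries and genes, and pathway genes were named by their values, so that number is only a rough guide. In that replicate the log2(CPM + 1) was 5.51 for *Alox12*, against 1.62 to 2.0 in the other cocultures, 1.36 for *Alox5*, against 4.86 to 5.31, and 5.38 for *Tbxas1*, against 6.25 to 6.42. It was 7.31 for *Dpep2*, against 4.79 to 5.03. The log2 ratio per kilobase there was -4.69 for *Alox5* to *Alox12*, against 3.42 to 4.0, and 8.06 for *Alox5ap* to *Alox5*, against 2.90 to 3.24. In MKs cultured alone, *Mgst2* stood apart in replicate 1 at 5.18, against 5.70 to 5.76, and *Slco2a1* in replicate 3 at 0.999, against 0.217 to 0.288, which are levels of a few counts.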

How the results depend on the processing

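The number of genes called, 2401, stayed within 1.5 times that value under the alternatives run on all 8 libraries, and lay between 1634 and 4420 when 1 library was dropped, with the highest value without replicate 3 of the cocultures. Of the members, 1 was called higher, against 2 with DESeq2, 0 with at least 10 counts in every library (a filter that removes *Ptgs2* and *Ptges* by construction) and 1 to 2 when 1 library was dropped. The members called lower numbered 4, against 2 with library size only, scaling to MK and platelet markers or the replicate block. Dropping 1 library gave between 2 and 4 (2 without replicate 2 or 3 of MKs cultured alone). Other pathway genes called higher numbered 7 (5 to 15 when 1 library was dropped), and those called lower numbered 8 (6 to 11).

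*Alox12* turned negative with the replicate block (-0.73) and with DESeq2 and the replicate block (-0.76). Dropping 1 library gave between -1.65 and 1.11. *Pla2g4a* had -0.039 with at least 10 counts in every library, -0.023 with the replicate block and -0.043 with DESeq2 and the replicate block. Dropping 1 library gave between -0.15 and 0.23. *Plaa* had 0.035 when scaled to the markers and between -0.22 and 0.11 when 1 library was dropped. *Ptgr2* had -0.075 with library size only, -0.016 without the low-count filter, -0.17 with at least 10 counts in every library, -0.13 with the replicate block, and -0.15 with DESeq2 and the replicate block. Dropping 1 library gave between -0.46 and 0.22. The difference between cocultures and MKs cultured alone in the log2 ratio of *Alox5ap* to *Alox5*, 1.06, lay between -0.20 and 1.53 when 1 library was dropped. The other 5 ratios kept their sign, and gene length cancels in these differences. The cause was not tested.

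Whether the replicate numbers pair the libraries could not be decided, because deviations were taken from means of 4 libraries that include coculture 3. Deviations of same-numbered libraries correlated across genes at 0.37, 0.020, 0.15 and 0.028, and those of differently numbered libraries at -0.28 to 0.099. Cocultures 1 and 3 correlated most with the library of their own number. Cocultures 2 and 4 correlated more with replicate 1 of MKs cultured alone (0.099 and 0.045). With the replicate block 1669 genes were called, and among the members the calls of *Alox5* and *Tbxas1* were lost. For single genes, of the values under alternatives run on all libraries 155 kept their direction and their side of the threshold, 11 no longer passed it, 1 newly passed it and 11 changed sign. With a library left out these numbers were 144, 29, 2 and 9. DESeq2 gave no adjusted p for *Alox12* and *Dpep2*, which are not counted under it. Depth limits *Ltc4s*, and *Ptgs2* and *Slco2a1* in MKs cultured alone.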

Other observations

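Among the pathway genes that did not pass the filter on low counts, 4 were at or near 0 in MKs cultured alone and in replicate 3 of the cocultures but were detected in cocultures 1, 2 and 4. They were chosen after their values were seen. *Ephx2*, soluble epoxide hydrolase, which breaks down epoxides of arachidonic acid, was at 0 in every library of MKs cultured alone and held 11.3, 22.9 and 5.55 CPM in cocultures 1, 2 and 4. With a floor of 3 counts over the group, its level over the 4 cocultures was at least 95.5-fold higher. *Dagla*, a diacylglycerol lipase that makes the arachidonate store 2-arachidonoylglycerol, was likewise at 0 in MKs cultured alone and held 2.09, 5.86 and 3.64 CPM, at least 25.7-fold higher over the group. *Dpep1*, a dipeptidase that cleaves leukotriene D4, held 12.6, 17.3 and 16.3 CPM, against at most 0.221 CPM in MKs cultured alone. *Ptgfr*, the receptor for prostaglandin F2 alpha, held 15.6, 10.3 and 7.11 CPM, against at most 0.825 CPM. In replicate 3 of the cocultures *Dpep1* held 0.209 CPM and the other 3 were at 0.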
